A study of Rattus norvegicus with 6 samples.

Results

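The genes described here make, break down and carry the signal of cyclic AMP (cAMP) in neonatal rat cardiomyocytes. They are the 60 of 22250 genes in the deposited table whose name begins with Adcy, Pde or Akap followed by a digit, or with Prkac or Prkar. They comprise 10 adenylyl cyclases, 27 rows named as phosphodiesterases or their subunits and partners, 17 rows named as A-kinase anchoring proteins, and 2 catalytic and 4 regulatory subunits of protein kinase A (PKA). The cells came from hearts of 1-day-old wild-type Sprague-Dawley rats, freed with collagenase and cultured with fetal bovine serum. For 48 h they received either 40 µM of the compound 3Cl-HBA (3 libraries) or the solvent DMSO (3 libraries), and the series title names hydroxycarboxylic acid receptor 1 as the receptor being activated. RNA was depleted of ribosomal RNA and sequenced, giving 14607337 to 17202191 reads assigned to genes in the 3Cl-HBA libraries and 13240800 to 14499065 in the DMSO libraries. The labels do not say that the libraries came from separate cultures or animals, so p-values measure only the spread between these samples, which may be technical.

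Adenylyl cyclases turn ATP into cAMP when the stimulatory G protein Gs is switched on, as by beta-adrenergic receptors in heart muscle, and several of them are held back by Gi proteins, to which hydroxycarboxylic acid receptor 1 couples. cAMP binds the regulatory subunits of PKA and frees the catalytic subunits, which in heart muscle phosphorylate the L-type calcium channel, the ryanodine receptor, phospholamban and troponin I. Phosphodiesterases hydrolyse cAMP or cGMP, and anchoring proteins hold PKA beside its targets and often bind a phosphodiesterase or a phosphatase as well. The values below are RNA levels, not enzyme activities or cAMP.

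Levels of heart muscle markers fit the label of the cells, with markers of other heart cells also present. The summed level of 8 cardiomyocyte markers was 23785.5 to 24074.5 counts per 1000000 reads (CPM) after 3Cl-HBA and 23586 to 24821 CPM in DMSO. The lowest of the 8, Myl2, had a mean of only 65.5 CPM over the 6 libraries. Of 40 marker symbols chosen for all cell types, 38 matched a row, and Col1a2 of fibroblasts and Pecam1 of endothelium did not. The summed level of 7 fibroblast markers was 15212.5 to 15493.8 CPM after 3Cl-HBA and 15081 to 15981 CPM in DMSO, and markers of smooth muscle, endothelium and macrophages were measured too, none at 0. The cultures thus held several cell types, which of them the RNA of a member came from was not measured, and fewer cells of a type cannot be told apart from less RNA per cell.

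Of the 60 members, 49 had enough reads to be tested. The tested members were 9 of 10 cyclases, 20 of 27 Pde rows, 14 of 17 Akap rows and all 6 PKA subunit genes. The 11 others never exceeded 11 reads in a library. They were the calcium-stimulated cyclase Adcy8 with 18 reads over the 6 libraries, the sperm and cilia anchors Akap3, Akap4 and Akap14 with 7, 4 and 7 reads, and the photoreceptor phosphodiesterase genes Pde6a, Pde6b, Pde6c, Pde6g and Pde6h with 32, 0, 29, 11 and 5 reads. Pde8b, a cAMP-selective enzyme, had 28 reads, and a second row named Pde4c had 1. Pde6b had 0 reads in every library, which allows up to 3 reads, or 0.227 CPM in the shallowest library, for counting error only. Requiring a mean of at least 1 CPM would leave 48 members, and requiring at least 1 read in every library 51.

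The PKA subunit RNAs were led by the type I regulatory subunit Prkar1a. Levels of different genes are compared as FPKM, the authors' read count per kilobase of gene length and 1000000 reads. Prkar1a, which the table places on the plus strand of chromosome 10 from 97940705 to 97957336 (genome build not stated), had 237.8, 229.4 and 231.8 FPKM in the 3Cl-HBA libraries and 234.9, 236.5 and 230.05 FPKM in the DMSO libraries. It made up 75.3% ± 0.999 of the summed FPKM of the 4 regulatory genes after 3Cl-HBA and 75.4% ± 0.84 in DMSO (SD, n = 3 each). Prkaca, the main catalytic subunit, followed with 62.9, 60.6 and 61.6 FPKM after 3Cl-HBA and 53.7, 57.3 and 62.4 FPKM in DMSO. Its DMSO libraries spread more widely than its 3Cl-HBA libraries, and the groups overlapped. The type II regulatory subunit Prkar2b averaged 42.4 ± 1.45 FPKM after 3Cl-HBA and 40.3 ± 1.67 FPKM in DMSO, and the catalytic subunit Prkacb 37.9 ± 0.92 FPKM after 3Cl-HBA and 39.6 ± 1.33 FPKM in DMSO. These last 2 overlapped in range over the 6 libraries, so their order is within the spread. Prkar2a averaged 32.3 ± 1.42 FPKM after 3Cl-HBA and 33.8 ± 2.99 FPKM in DMSO. Prkar1b, a subunit best known from neurons, was the lowest with 1.77 ± 0.15 FPKM after 3Cl-HBA and 2.23 ± 0.15 FPKM in DMSO. Summed regulatory FPKM was 3.11 ± 0.012 times summed catalytic FPKM after 3Cl-HBA and 3.19 ± 0.16 times in DMSO (exact permutation test of 3 against 3, two-sided p = 0.4, where the smallest p possible is 0.1).

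No PKA subunit passed the test for a change with 3Cl-HBA, which 0% of all genes tested passed. In edgeR's quasi-likelihood test over all genes, the log2 fold change (3Cl-HBA minus DMSO) of Prkar1a was -0.0034 (SE 0.046, 95% interval -0.095 to 0.089, adjusted p 0.998). Its libraries of both groups lay within 330.9 to 339.7 CPM. The value for Prkaca was 0.096 (SE 0.056, 95% interval -0.016 to 0.208, adjusted p 0.9745), the lowest unadjusted p of the 6 at 0.090. It was 0.044 without DMSO replicate 1 and 0.154 without DMSO replicate 3. Prkar2b had 0.075, Prkacb -0.059 and Prkar2a -0.062, each with an interval that held 0. Prkar1b lay lower in every 3Cl-HBA library, at 1.84, 2.11 and 1.78 CPM after 3Cl-HBA against 2.58, 2.34 and 2.27 CPM in DMSO, from 27 to 36 reads a library. With so few reads its log2 fold change of -0.33 had an SE of 0.29 and an adjusted p of 0.984. Prkaca as a share of catalytic FPKM was 61.9% ± 0.90 after 3Cl-HBA and 59.3% ± 2.55 in DMSO, a difference within the spread (exact permutation p = 0.3).

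Adcy6, one of the cyclases that calcium and Gi proteins inhibit, was the leading cyclase. Adcy6 (chromosome 7, 140270692 to 140291620, minus strand) had 48.4, 47.997 and 52.3 FPKM after 3Cl-HBA and 53.8, 50.3 and 52.5 FPKM in DMSO. It made up 48.4% ± 0.92 of summed cyclase FPKM after 3Cl-HBA and 48.2% ± 0.54 in DMSO. Its close relative Adcy5, the other cyclase typical of heart muscle, came second with 16.2 ± 0.47 FPKM after 3Cl-HBA and 16.6 ± 1.49 FPKM in DMSO. Adcy4 and Adcy7, which G beta-gamma subunits stimulate, followed with 14.4 ± 0.53 and 13.2 ± 0.61 FPKM after 3Cl-HBA and 15.9 ± 0.71 and 14.6 ± 0.67 FPKM in DMSO. The ranges of Adcy5 and Adcy4 overlapped over the 6 libraries, as did those of Adcy4 and Adcy7. Next were the forskolin-insensitive Adcy9 and the calcium-stimulated Adcy3, with means over the 6 libraries of 3.24 and 3.02 FPKM and overlapping ranges, and Adcy2 with 2.09 FPKM. The soluble, bicarbonate-sensing Adcy10 and the neuronal Adcy1 stood at 0.388 and 0.289 FPKM. Adcy3 overlaps Cenpo on the opposite strand, and since the strand setting of the counting is not given, reads in the shared stretch cannot be assigned to 1 of them.

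**Figure D1:**
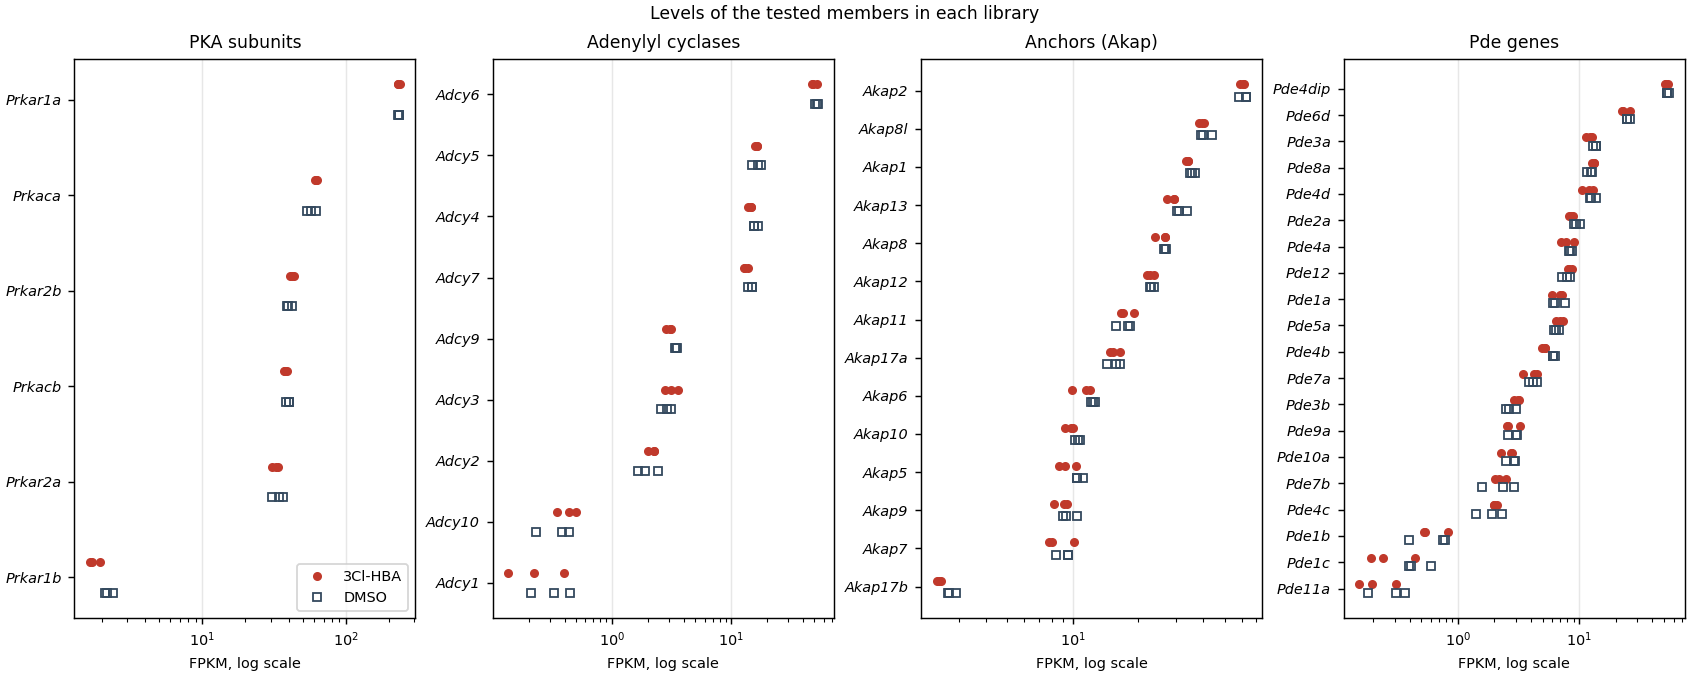
Levels of the 49 tested members by family, as the authors' FPKM on a log scale, with 1 point per library: filled red circles for 3Cl-HBA and open squares for DMSO. Genes run from high to low mean level, with Prkar1a, Adcy6, Akap2 and Pde4dip at the top of their families, and the spread between libraries is small beside the distance between leading and low members.

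Cyclases did not pass the test either. Of 9 tested cyclases, 6 had a log2 fold change below 0 and the median was -0.073, beside -0.00051 over all 13903 genes tested. That median was -0.116 without 3Cl-HBA replicate 3, -0.106 in DESeq2 and -0.047 with the trend on gene length removed. Adcy6 had -0.073 (SE 0.048, 95% interval -0.170 to 0.024, adjusted p 0.983) and Adcy5 -0.029 (SE 0.064, 95% interval -0.158 to 0.0998, adjusted p 0.993). Adcy4 had 49.9, 47.5 and 50.6 CPM after 3Cl-HBA and 53.3, 57.3 and 53.2 CPM in DMSO. Its groups did not overlap, and its log2 fold change was -0.15 (SE 0.070, unadjusted edgeR p 0.041, adjusted p 0.959). Adcy7 had 52.8, 54.3 and 57.97 CPM after 3Cl-HBA and 61.7, 57.4 and 62.85 CPM in DMSO. For Adcy7 the highest 3Cl-HBA library, replicate 3, lay above the lowest DMSO library, replicate 2, and the log2 fold change was -0.14 (SE 0.068, unadjusted edgeR p 0.047, adjusted p 0.959). Adcy4 and Adcy7 together took 26.9% ± 0.11 of summed cyclase FPKM after 3Cl-HBA and 28.1% ± 0.70 in DMSO, without overlap (exact permutation p = 0.1, the smallest possible, and 0.467 after Benjamini-Hochberg adjustment over the 14 sums and shares computed). They are also the 2 cyclases with an unadjusted edgeR p under 0.05, so their share is no separate support. It leaves out Adcy2, which G beta-gamma subunits stimulate too and which went the other way (log2 fold change 0.11, SE 0.17). Adcy4 and Adcy7 are also expressed by endothelial and blood cells. The summed level of 5 endothelial markers was 132 to 143 CPM after 3Cl-HBA and 135 to 153 CPM in DMSO, and that of 6 macrophage and leukocyte markers 347 to 358 CPM after 3Cl-HBA and 322 to 348 CPM in DMSO. None of these markers was at 0, and their part in the result was not tested.

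Among the 27 Pde rows, the 2 most abundant RNAs encode no cyclic nucleotide phosphodiesterase. Pde4dip, or myomegalin, a large protein of the centrosome, Golgi and sarcomere that binds Pde4d, averaged 52.1 ± 1.34 FPKM after 3Cl-HBA and 53.8 ± 1.14 FPKM in DMSO. Pde6d, which shuttles prenylated proteins between membranes, averaged 24.0 ± 2.08 FPKM after 3Cl-HBA and 25.3 ± 0.81 FPKM in DMSO. Pde12, a mitochondrial enzyme that trims RNA, belongs to the same group and had a mean of 8.10 FPKM over the 6 libraries.

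The enzymes that hydrolyse cAMP were spread over several isoforms with no single leader. Pde3a, which cGMP inhibits and which acts near the sarcoplasmic reticulum of heart muscle, had 11.5, 12.8 and 12.4 FPKM after 3Cl-HBA and 13.0002, 13.75 and 13.9 FPKM in DMSO. The cAMP-selective Pde8a had 12.9, 13.1 and 13.3 FPKM after 3Cl-HBA and 12.7, 11.6 and 12.5 FPKM in DMSO. Pde4d, a rolipram-sensitive enzyme found with the ryanodine receptor and beta-adrenergic receptors, had 10.5, 13.1 and 11.985 FPKM after 3Cl-HBA and 13.9, 12.5 and 12.4 FPKM in DMSO. The ranges of Pde3a and Pde8a overlapped, as did those of Pde8a and Pde4d, so the order among these 3 enzymes is within the spread. Among all Pde rows Pde8a took place 3 after 3Cl-HBA, and Pde3a took it in DMSO and over the 6 libraries. Pde2a, which cGMP stimulates, had a mean of 9.08 FPKM, Pde4a 8.22, the calmodulin-stimulated Pde1a 6.71 and Pde4b 5.65 FPKM over the 6 libraries. Pde7a, Pde3b, Pde10a, Pde7b and Pde4c ranged from 1.95 to 4.11 FPKM, and Pde1b, Pde1c and Pde11a from 0.252 to 0.635 FPKM. Of the cGMP-selective enzymes, Pde5a had 6.699 and Pde9a 2.83 FPKM.

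By summed FPKM, the Pde4 enzymes made up 33.4% ± 1.14 of the cAMP-hydrolysing phosphodiesterases after 3Cl-HBA and 34.6% ± 1.18 in DMSO, and Pde3a with Pde3b 18.9% ± 0.36 after 3Cl-HBA and 19.1% ± 0.55 in DMSO. The summed FPKM of these enzymes was 80.8 ± 2.03 after 3Cl-HBA and 84.97 ± 1.42 in DMSO, and the groups did not overlap (exact permutation p = 0.1, the smallest possible, 0.467 after adjustment over the 14 sums and shares). FPKM were not rescaled between libraries beyond their totals, and the scaling factors of the count test were all between 0.9947 and 1.0048.

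No phosphodiesterase passed the test, and Pde4b came nearest. Of 20 tested Pde rows, 14 were below 0 and the median log2 fold change was -0.053, or -0.030 without 3Cl-HBA replicate 2. Pde4b, which shapes cAMP at the L-type calcium channel in mouse heart (chromosome 5, 121952977 to 122136814, plus strand), had 17.1, 17.4 and 16.2 CPM after 3Cl-HBA and 20.04, 20.2 and 20.8 CPM in DMSO. Every 3Cl-HBA library was below every DMSO library, with SDs of 0.59 CPM after 3Cl-HBA and 0.39 CPM in DMSO. The log2 fold change was -0.27 (SE 0.10, 95% interval -0.471 to -0.059, unadjusted edgeR p 0.0128, adjusted p 0.959), or -16.8%. Pde2a had 38.7, 37.8 and 36.0 CPM after 3Cl-HBA and 39.8, 41.4 and 45.0 CPM in DMSO. These groups did not overlap, though 3Cl-HBA replicate 1 and DMSO replicate 1 lay close, and the log2 fold change was -0.16 (SE 0.077, unadjusted edgeR p 0.039, adjusted p 0.959). Pde3a also lay lower in all 3Cl-HBA libraries, by a fitted -0.14 in log2 units (interval -0.294 to 0.0059, SE 0.075, unadjusted edgeR p 0.059, adjusted p 0.959). Pde8a was the only tested member of the 60 with all 3Cl-HBA libraries above all DMSO libraries, at 32.8, 33.8 and 34.02 CPM after 3Cl-HBA and 32.5, 29.7 and 32.2 CPM in DMSO (log2 fold change 0.092, SE 0.082, adjusted p 0.984). Pde4dip and Pde6d had log2 fold changes of -0.045 (SE 0.045) and -0.077 (SE 0.088), both with intervals that held 0. Pde1c had the lowest fitted value of the tested members, -0.66, at 0.701 to 1.64 CPM after 3Cl-HBA and 1.44 to 2.20 CPM in DMSO, with overlapping groups and an SE of 0.37.

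The anchors were led by Akap2, a membrane-associated scaffold, with 58.8, 61.1 and 61.2 FPKM after 3Cl-HBA and 62.7, 58.4 and 63.1 FPKM in DMSO. Akap2 overlaps a further row of the table, AC134204.1, on its own strand. Akap8l, a nuclear matrix protein, averaged 39.3 ± 1.04 FPKM after 3Cl-HBA and 40.8 ± 2.46 FPKM in DMSO, and its neighbour Akap8, which binds condensing chromatin, 25.7 ± 1.43 FPKM after 3Cl-HBA and 26.7 ± 0.29 FPKM in DMSO. Akap8 and Akap8l overlap on 1 strand of chromosome 7, so reads in the shared stretch may be split between them. Akap1, which holds PKA at the outer mitochondrial membrane, averaged 33.7 ± 0.45 FPKM after 3Cl-HBA and 35.4 ± 0.92 FPKM in DMSO. Its range overlapped that of Akap13, a large PKA scaffold also known as AKAP-Lbc, with a mean of 30.1 FPKM over the 6 libraries. Gravin, the product of Akap12, followed with 23.02 FPKM, the vesicle anchor Akap11 with 17.5 and the splicing factor Akap17a with 15.6 FPKM. Akap6, or mAKAP, which assembles PKA with Pde4d and the ryanodine receptor at the nuclear envelope of heart muscle, had a mean of 11.8 FPKM. The ranges of Akap6, Akap10, Akap5, Akap9 and Akap7, with means of 11.8 down to 8.88 FPKM, overlapped each with the next. Akap17b was the lowest tested anchor with 2.59 FPKM.

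No anchor passed the test. The summed anchor FPKM was 294 ± 8.02 after 3Cl-HBA and 307 ± 7.14 in DMSO, without overlap (exact permutation p = 0.1, the smallest possible, 0.467 after adjustment over the 14 sums and shares). That separation rests on a very narrow gap, between 299.79 in 3Cl-HBA replicate 3 and 299.83 in DMSO replicate 2. Scaling by the factors of the count test, 0.9985 and 1.0024 for these libraries, would reverse their order, so the separation depends on the scaling. The sums of the cyclases and PKA subunits overlapped between groups. Summed cyclase FPKM was 102 ± 3.62 after 3Cl-HBA and 108 ± 2.47 in DMSO (exact permutation p = 0.2). Summed catalytic FPKM was 99.6 ± 0.96 after 3Cl-HBA and 97.3 ± 3.28 in DMSO (exact permutation p = 0.4). Summed regulatory FPKM was 309 ± 2.57 after 3Cl-HBA and 310 ± 7.79 in DMSO (exact permutation p = 0.8). Of 14 tested anchors, 12 were below 0 and the median log2 fold change was -0.067. All 3Cl-HBA libraries lay below all DMSO libraries in 6 of the 14, beside a smaller share, 5.22%, of all genes tested. Without 3Cl-HBA replicate 1 the median was -0.041. These 6 were Akap1, Akap5, Akap6, Akap10, Akap13 and Akap17b. Akap13 (chromosome 1, 137014272 to 137315272, plus strand) had 332, 361 and 359 CPM after 3Cl-HBA and 408, 378 and 373 CPM in DMSO. Its lowest library was 3Cl-HBA replicate 1 and its highest DMSO replicate 1. The log2 fold change was -0.14 (SE 0.048, 95% interval -0.235 to -0.042, unadjusted edgeR p 0.0059, adjusted p 0.959). Akap6 had 87.5, 106.9 and 102.4 CPM after 3Cl-HBA and 112.2, 109.7 and 107.2 CPM in DMSO. Its separation rests on a narrow gap, between 106.9 and 107.2 CPM, and 3Cl-HBA replicate 1 lay well below the rest (log2 fold change -0.15, SE 0.062, unadjusted edgeR p 0.021, adjusted p 0.959). Without that library the value was -0.068 with an unadjusted edgeR p of 0.27. Akap5, which binds PKA, calcineurin and adenylyl cyclases at the plasma membrane, had 23.2, 24.97 and 27.9 CPM after 3Cl-HBA and 29.99, 28.4 and 28.4 CPM in DMSO. Here too 3Cl-HBA replicate 1 was lowest, and replicate 3 came close to DMSO (log2 fold change -0.19, SE 0.091, unadjusted edgeR p 0.043, adjusted p 0.959). The most abundant anchors had log2 fold changes of -0.022 (SE 0.049) for Akap2, -0.052 (SE 0.061) for Akap8l and -0.070 (SE 0.053) for Akap1.

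**Figure D2:**
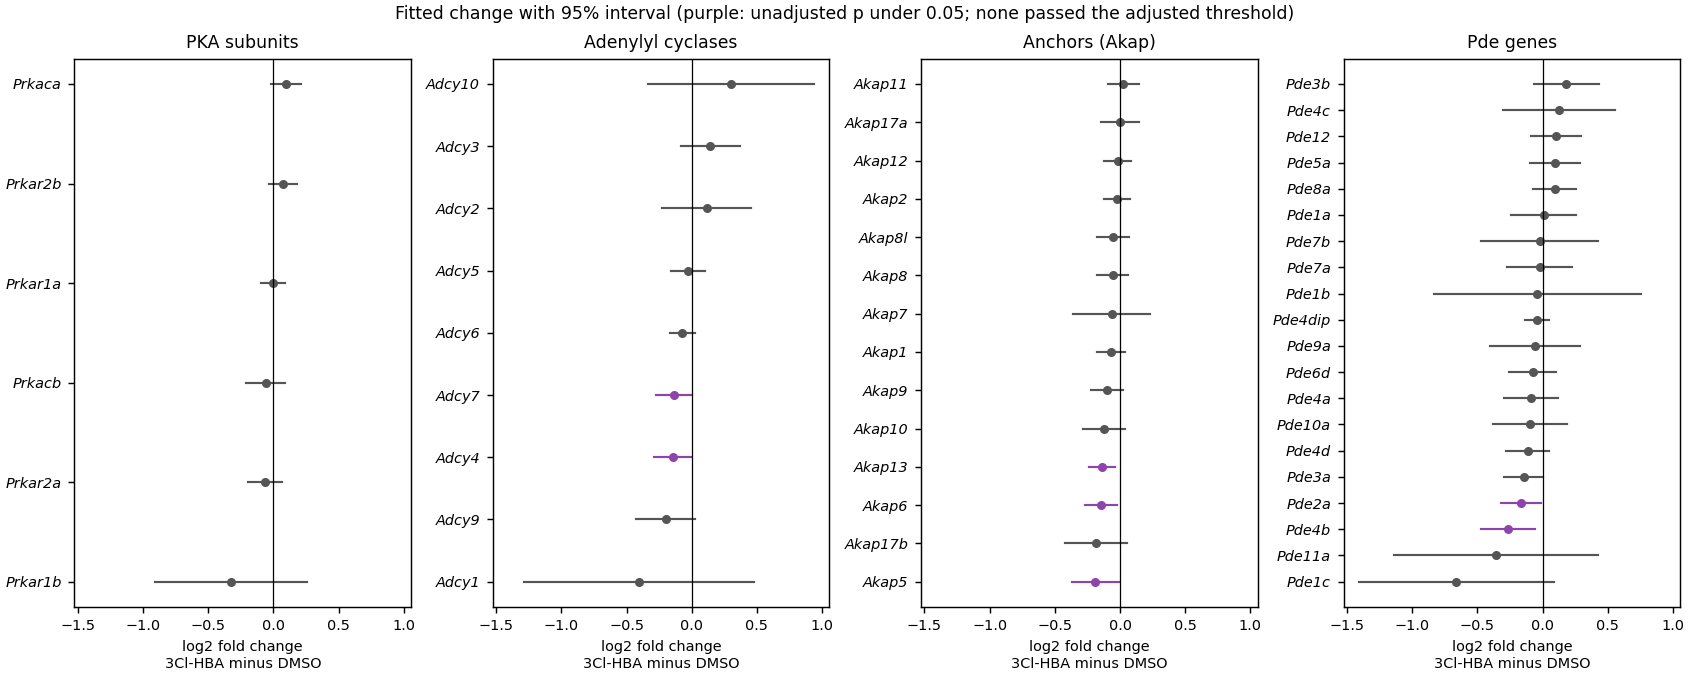
Fitted log2 fold change of each tested member (point) with its 95% interval (line), 3Cl-HBA minus DMSO, by family and from high to low. Purple marks the 7 members with an unadjusted p under 0.05, all to the left of 0, and no member passed the adjusted threshold.

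Across the families, 0 of 49 tested members were called at an adjusted edgeR p under 0.05, as were 0% of all 13903 genes tested, with a lowest adjusted p of 0.959 among the members. At an unadjusted p under 0.05 there were 7 members, or 14.3%, beside 5.11% of all genes tested. All 7 were lower after 3Cl-HBA, where 2.59% of all genes were lower and 2.52% higher at that threshold. DESeq2, which keeps low genes, put 3 of 59 members under an unadjusted p of 0.05 (5.08%, beside 2.24% of all genes it fitted) and called 0. Groups did not overlap in 12 of the 49 members lower and 1 of the 49 higher, beside 5.22% lower and 5.24% higher of all genes. Of the 49, 36 had a log2 fold change below 0 (73.5%), beside 50.2% of all genes, and the median was -0.060. The members and their families were chosen with earlier results of these data known, so the shares are a description and carry no test. The count of 7 became 4 (8.16%, beside 5.10% of all genes) without 3Cl-HBA replicate 1, whose removal also moved the median to -0.038; Akap5, Akap6 and Adcy7 were no longer under 0.05. A change of 1.5-fold or more in either direction lay outside the 95% interval of 43 tested members (87.8%), beside 80.9% of all genes. The 6 with wider intervals were low in reads: Prkar1b, Adcy1, Adcy10, Pde1b, Pde1c and Pde11a.

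**Figure D3:**
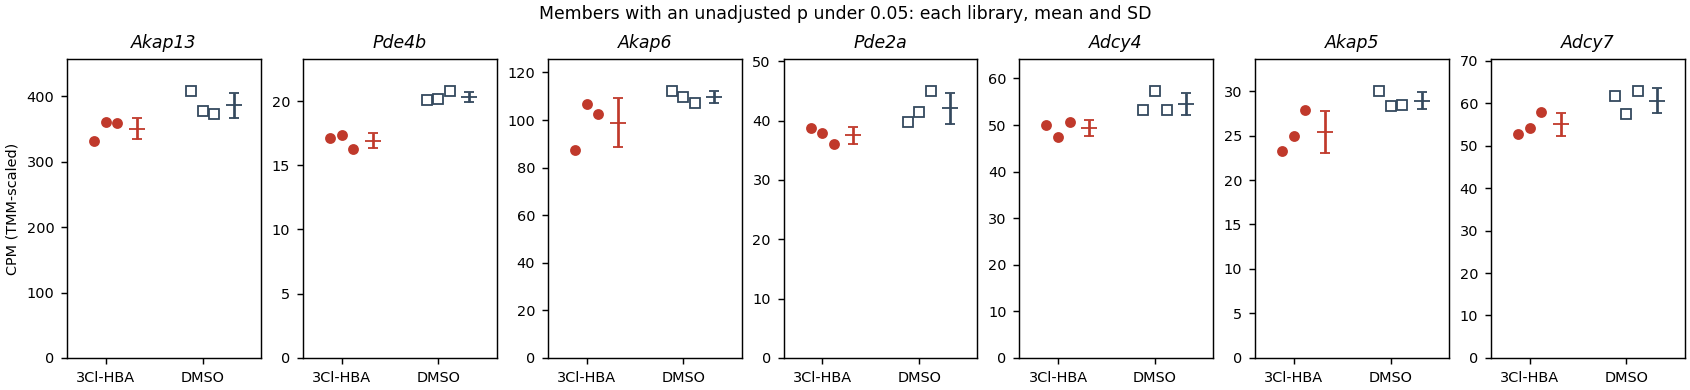
CPM of the 7 members with an unadjusted p under 0.05 in each library, 3Cl-HBA (filled circles) left of DMSO (open squares), with mean and SD beside the points and axes starting at 0. The group differences run from -9.17% to -16.8%, and in Akap13, Akap6, Akap5 and Adcy7 the lowest point is 3Cl-HBA replicate 1.

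Gene length moved weakly with these values. The Spearman correlation of log2 fold change with length was -0.148 over the tested members and -0.115 over all tested genes. The tested members had a median length of 3426 bases in the deposited table, beside 2416 bases over all tested genes. Over all tested genes at least 3426 bases long, the median log2 fold change was -0.021 and 60.7% were below 0, whereas over the shorter genes it was 0.0098 and 45.9% were below 0. Among the members the corresponding medians were -0.10 for the 25 longer and -0.032 for the 24 shorter. With each library's trend on length removed, the members' median stayed at -0.064, while the count under an unadjusted p of 0.05 became 3 (6.12%), beside 5.11% of all genes. The 3 were Pde4b (-0.26), Adcy4 (-0.14) and Akap5 (-0.19). The value of Akap13, 12229 bases long, became -0.068, that of Akap6, 8824 bases long, -0.099, and that of Pde4dip, 8400 bases long, 0.0016. Adcy7 and Pde2a also passed out of the count, with values close to those before, -0.13 for Adcy7 (unadjusted edgeR p 0.056) and -0.15 for Pde2a (unadjusted edgeR p 0.052). Whether the length trend belongs to the treatment or to the preparation of the libraries was not tested.

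**Figure D4:**
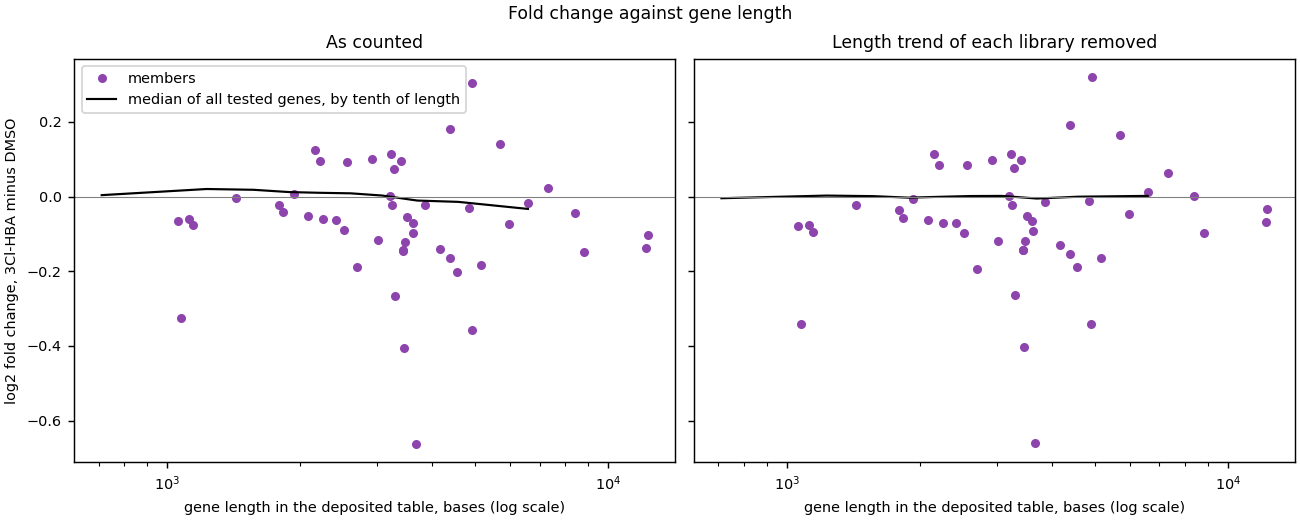
Log2 fold change (3Cl-HBA minus DMSO) of the tested members against gene length in bases on a log scale, as counted (left) and after removal of the trend on length in each library (right); the line joins the medians of all tested genes in 10 bins of length. On the left the line slopes below 0 for long genes, to -0.033 in the longest bin, and on the right it lies near 0 while most members remain below it.

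Promoters were looked up for the cAMP response element (CRE), the DNA letters bound by CREB, the transcription factor that PKA phosphorylates. RefSeq promoters of the GRCr8 assembly, 250 bases before to 50 after a gene start, were found for 45 member names, with 59 starts. The full palindrome TGACGTCA was in 1 of the 59 (1.69%) beside 1.83% of all 33469 promoters, and the short CRE core (TGACG on either strand, which the palindrome contains too) in 14 (23.7%) beside 21.2%. Of the 7 members with an unadjusted p under 0.05, the promoters of Akap13 and Adcy7 held the short core. Those stretches follow, with the single full palindrome, in Akap17a (log2 fold change of its RNA 0.0013, SE 0.073), each on the gene's strand with the motif in capitals.
Akap13, chr1:138724125-138724181, plus strand: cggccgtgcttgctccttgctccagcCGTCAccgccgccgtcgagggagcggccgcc
Adcy7, chr19:34936495-34936535, minus strand: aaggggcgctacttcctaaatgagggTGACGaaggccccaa
Akap17a, chr12:21428426-21428485, minus strand: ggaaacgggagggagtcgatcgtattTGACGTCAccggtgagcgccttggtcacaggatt
Counted from the first base past the 250 upstream bases, the motif begins 1 base on in Akap13 and 35 bases on in Adcy7, and at -212 in Akap17a, and a match of letters does not show binding.

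Genes that act beside these families gave no call. The list held 57 symbols of receptors and G proteins, PKA inhibitors, other cAMP effectors, anchors under other names, PKA targets and cAMP-responsive transcription, of which 55 matched 56 rows and 52 were tested. Of these, 0 passed, 24 were above 0 and 28 below, and the median log2 fold change was -0.031. Upstream, the more abundant of the 2 rows of the Gs subunit gene Gnas had 278 ± 9.62 CPM after 3Cl-HBA and 261 ± 19.3 CPM in DMSO, the Gi subunit Gnai2 449.8 ± 8.08 CPM after 3Cl-HBA and 442 ± 12.2 CPM in DMSO, and the beta-1 receptor Adrb1 23.7 ± 0.71 CPM after 3Cl-HBA and 24.9 ± 2.57 CPM in DMSO. Hcar1, the gene of hydroxycarboxylic acid receptor 1, was below the filter and was not tested. It had few reads, at 0.95, 0.58 and 0.32 CPM after 3Cl-HBA and 0.64, 0.48 and 0.38 CPM in DMSO. The PKA inhibitors Pkia and Pkig were abundant, with means of 116 and 126 FPKM over the 6 libraries beside 59.7 FPKM for Prkaca, and had log2 fold changes of -0.051 (SE 0.053) and -0.045 (SE 0.055). Popdc2, a cAMP-binding membrane protein of heart muscle, had 155 FPKM, and the cAMP-activated exchange factors Rapgef3 and Rapgef4 5.05 and 4.79 FPKM.

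At an unadjusted edgeR p under 0.05 there were 5 listed genes, or 9.62%, beside 5.11% of all genes, 1 higher and 4 lower. The higher one was Hspb6, a small heat shock protein and PKA target, at 191, 203 and 196 CPM after 3Cl-HBA and 175, 164 and 185 CPM in DMSO (log2 fold change 0.17, SE 0.052, adjusted p 0.914). The lower ones were the channel genes Ryr2 (-0.17, SE 0.047) and Cacna1c (-0.13, SE 0.053), the kinase Sik1, which cAMP induces (-0.19, SE 0.089), and the low-level channel subunit Cngb1 (-0.99, SE 0.41), with adjusted p of 0.914 to 0.959. None of these 5 values is corrected for the trend on gene length described above, and the part of length in them was not tested. The PKA target with the most RNA, phospholamban (Pln), had 748 FPKM over the 6 libraries. Of 15 genes of cAMP-responsive transcription, 7 were above 0 and 8 below. Dusp1, the most abundant of them, had 87.3 ± 2.38 CPM after 3Cl-HBA and 90.6 ± 1.54 CPM in DMSO.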

How the data were processed

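The RNA-seq values of the cardiomyocytes came from 1 deposited table. The read counts per gene and library are the authors' raw counts, per the file headers. The FPKM are the authors' values, per the file headers, and equal count over gene length and library total within a relative gap of 8.2e-08. DESeq2 is named in the labels' protocols. The sources used here do not give aligner, counter, strand setting or build. Columns were assigned through the treatment protocol and replicate number in the labels. Totals were 13240800 to 17202191 reads.

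Counts were fitted over all genes in R 4.3.3 with edgeR 4.0.16 (robust glmQLFit and glmQLFTest with no block, after TMM scaling), and filterByExpr at a minimum count of 10 kept 13903 genes. The threshold was a Benjamini-Hochberg adjusted p of 0.05. SEs are the log2 fold change over the square root of F. FPKM were not tested across genes. CPM use TMM-scaled totals. The procedure was tested on simulated data. Alternatives were DESeq2 1.42.0, limma-voom (limma 3.58.1), other scalings and filters, a replicate block, length trends removed by lowess (span 0.3), and each library left out.

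Members and lists were chosen with earlier results of these data known. The text names all PKA subunits, the 3 highest by FPKM in each other family, members with an unadjusted p under 0.05 and each family's lowest p. Other members are named for their level, or, as with Pde8a, Pde1c, the changes of Adcy2 and Adcy9, and the anchors whose groups do not overlap, after their values were seen. Gene lengths are the authors', and levels per length depend on them.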

Additional observations from a re-analysis of the deposited data

How the results depend on the processing

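No member and no listed pathway gene was called under any of the 14 alternatives to the test. Over all genes, 2 were called with no filter on low counts, 1 by limma-voom, and 0 to 8 when a library was left out. Deviations of same-numbered libraries of the 2 groups had correlations of -0.069, -0.044 and -0.045, which gave no sign of pairing. With 3 libraries in each group, a weak pairing could be missed, so it is not excluded. With the replicate number as a block, 0 genes were called and 4 members (8.16%) had an unadjusted p under 0.05, beside 4.34% of all genes. Of the 12 members that lead their families by FPKM, 3 in each, 11 were still among the leading 3 when 3Cl-HBA libraries alone were ranked and 8 when ranked by CPM, where Akap13 led the anchors in place of Akap2. Of 294 alternative values of 21 named members, 288 kept their direction. The alternatives reuse the same libraries, and some of these members were named for a low p, so the count is a description only. Prkar1a turned to 0.00027 with no filter and ranged from -0.015 to 0.0044 with a library left out, Akap2 from -0.059 to 0.0011 and Adcy5 from -0.10 to 0.029, while Pde4dip turned to 0.0016 with the length trend removed. For these the cause was not tested. Pde4b, itself named for its low p in the full fit, stayed under an unadjusted edgeR p of 0.05 in all 6 fits with a library left out. Depth limits the 6 lowest tested members, whose intervals exceed 1.5-fold.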
